A study of Mus musculus with 9 samples.

Results

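The genes described here encode 9 transcriptional silencers of retroelements and heterochromatin: Mphosph8, Pphln1, Morc2a, Atf7ip, Setdb1, Trim28, Cbx5, Dnmt1 and Uhrf1. They were taken from the deposited table by gene name, and all 9 were found among its 15977 genes. The 9 genes were chosen with earlier results of these data known. In mouse N2A cells that lack MOV10, 8 of the 9 mRNAs had a lower mean with the S970D form of MOV10 than with the wild-type form, as did 50.1% of all genes, and 1, Trim28, had a higher mean. The differences in mean ran from -1.60 on the log2 scale for Atf7ip, a ratio of 0.329, to 0.61 for Trim28, a ratio of 1.52. None of the 9 passed the test across all genes in the fit of all 9 libraries (limma adjusted p from 0.0756 to 0.224), in which 0.00626% of all genes passed. With libraries of the same replicate number taken as pairs, 6 of the 9 fell and Trim28 rose (limma adjusted p from 0.00825 to 0.0170), in a fit in which 45.5% of all genes passed.

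HUSH is a chromatin complex of TASOR, MPP8 (the product of Mphosph8) and periphilin (the product of Pphln1) that silences retroelements and other newly integrated DNA. It works with the ATPase MORC2 and with SETDB1, an enzyme that places methyl groups on lysine 9 of histone H3 and is held in the nucleus by its partner ATF7IP. TRIM28, also called KAP1, is brought to retroelements by KRAB zinc finger proteins and recruits SETDB1 as well. The methylated lysine is bound by HP1 proteins, among them HP1 alpha, the product of Cbx5, and UHRF1 guides the maintenance methyltransferase DNMT1 to newly replicated DNA. MOV10, the protein altered here, is an RNA helicase known to restrain retroelements at the RNA level.

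Messenger RNA was measured by sequencing of poly(A)-selected libraries from N2A, a mouse neuroblastoma line, with a knockout of MOV10. The cells received 2 micrograms of DNA and were harvested at 24 hours. The DNA encoded wild-type MOV10 (WT), MOV10 with alanine in place of serine 970 (S970A), which takes away a site for phosphate, or MOV10 with aspartate there (S970D), whose charge resembles that of a phosphate. Each form had 3 libraries, every group carried the knockout, and no library without transfection was analysed here. The labels do not say whether the knockout line is a single clone, from which species the MOV10 DNA came, or that replicates were separate cultures, so a p-value here speaks only to how these libraries vary. Values are given as log2 CPM (counts per unit of library size, on a log2 scale), and the table holds no read counts, so the depth of a library is unknown. In bulk RNA, fewer cells with a transcript and less of it per cell cannot be told apart.

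Mov10, the targeted gene, stood at 14.90, 15.49 and 15.71 log2 CPM in WT replicates 1, 2 and 3, at 14.62, 15.24 and 15.42 in S970A and at 14.57, 14.84 and 14.75 in S970D, a difference between S970D and WT of -0.65 ± 0.29 (SE; limma adjusted p = 0.111, and 0.0323 with the replicate number as a block). Of 14 markers of this neuroblastoma line, 12 were measured, with sums of 2094 to 2382 CPM in WT, 2108 to 3305 in S970A and 3029 to 3601 in S970D. Hand2 lay between 9.03 and 10.61 log2 CPM and Tubb3 between 9.17 and 9.79, whereas Th and Dbh stayed between -2.60 and -0.14. Of 42 markers of other cell types, 12 were measured, and their sums moved in both directions. On the first principal component of all genes, which held 64.0% of the variance, S970A replicate 1 scored 0.89 and lay among the S970D libraries (0.54 to 0.97), whereas S970A replicates 2 and 3 scored -0.47 and -0.72 and lay among the WT libraries (-1.0 to -0.10), with scores scaled to the farthest library. The summed CPM of 86 cytosolic ribosomal protein genes, which are short transcripts, ran from 50707 to 83539 in WT, from 56040 to 133841 in S970A and from 112814 to 133355 in S970D. Replication-dependent histone genes, whose mRNAs lack a poly(A) tail, summed to 77.3 to 120 CPM in WT, 80.6 to 181 in S970A and 143 to 180 in S970D. Of 9 fibroblast markers 3 were measured (Dcn, Pdgfra and Fn1), with sums of 360 to 481 CPM in WT, 281 to 471 in S970A and 241 to 313 in S970D. The 3 measured of 8 Schwann and glial markers summed to 97.1 to 108 CPM in WT, 65.0 to 114 in S970A and 61.3 to 96.1 in S970D. Cd68, the only measured one of 9 macrophage and leukocyte markers, lay at 0.498 to 0.746 CPM in WT, 0.469 to 0.829 in S970A and 1.24 to 2.28 in S970D. Epithelial markers (2 measured of 8) summed to 1.47 to 1.62 CPM in WT and 1.65 to 3.11 in S970D. Endothelial markers (3 of 8) summed to 9.29 to 10.7 in WT and 10.6 to 18.0 in S970D. The part of these shifts in the differences below was not tested.

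The promoters of the 9 genes are shown because 8 of their mRNAs had a lower mean and Trim28 a higher one. All 9 had an entry in RefSeq, with 15 start sites in all, and 4 had a single start site: Mphosph8, Setdb1 and Atf7ip, whose means were lower in S970D, and Trim28. The 250 bases before those 4 starts are given 5′ to 3′ on the strand of the gene, from RefSeq on GRCm38.p6, with CCAAT or its reverse complement ATTGG, the motif of the factor NFY, in capitals.
Mphosph8 (chr14:56667998-56668247, plus strand): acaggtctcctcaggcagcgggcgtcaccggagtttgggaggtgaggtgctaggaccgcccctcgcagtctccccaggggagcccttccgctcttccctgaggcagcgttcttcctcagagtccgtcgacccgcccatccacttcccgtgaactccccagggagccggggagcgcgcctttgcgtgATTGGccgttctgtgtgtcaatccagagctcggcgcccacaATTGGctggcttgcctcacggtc
Setdb1 (chr3:95357203-95357452, minus strand): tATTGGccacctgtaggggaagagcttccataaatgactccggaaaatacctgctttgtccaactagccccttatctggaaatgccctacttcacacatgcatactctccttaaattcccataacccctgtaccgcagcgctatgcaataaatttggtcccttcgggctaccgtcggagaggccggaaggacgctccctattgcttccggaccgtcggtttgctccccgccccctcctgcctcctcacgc
Atf7ip (chr6:136518601-136518850, plus strand): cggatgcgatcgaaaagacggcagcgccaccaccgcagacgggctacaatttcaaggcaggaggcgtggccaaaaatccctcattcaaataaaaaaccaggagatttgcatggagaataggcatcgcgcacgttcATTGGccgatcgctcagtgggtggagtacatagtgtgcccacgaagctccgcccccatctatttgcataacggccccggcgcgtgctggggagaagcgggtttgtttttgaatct
Trim28 (chr7:13023902-13024151, plus strand): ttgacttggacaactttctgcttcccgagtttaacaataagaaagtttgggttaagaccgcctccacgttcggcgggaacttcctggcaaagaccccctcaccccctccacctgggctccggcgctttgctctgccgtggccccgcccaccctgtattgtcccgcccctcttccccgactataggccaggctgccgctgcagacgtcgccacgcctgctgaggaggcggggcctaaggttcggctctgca
The window of Mphosph8 held 2 such matches, those of Setdb1 and Atf7ip held 1 each, and that of Trim28 held none. Of the 15 windows of the 9 genes, 9 held a match, and 33.8% of 32851 RefSeq promoters of the same length held this motif. By gene, 7 of the 9 held a match in at least 1 window. Pphln1, whose mean was also lower in S970D, held none at either of its starts, so the motif did not part the lower genes from Trim28. No window held the E2F motifs TTTCCCGC or TTTGGCGC, the YY1 motif AAGATGGC or the cyclic AMP response motif TGACGTCA on either strand, which occurred in 0.417% to 1.56% of all promoters. The ETS motif CCGGAAGT, present in 2.88% of all promoters, was found in 1 window, at a start of Pphln1. The ratio of observed to expected CpG was 0.710 in the window of Mphosph8, 0.756 in that of Setdb1, 1.07 in that of Atf7ip and 0.730 in that of Trim28, against a median of 0.373 over all promoters. The RefSeq starts of Atf7ip and Trim28 lie inside the spans that the gene annotation used below gives them. These matches describe the letters of the windows only.

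Levels between genes were compared per kilobase of transcript. In WT, Trim28 was the highest of the 9 at 82.5 ± 14.9 CPM per kilobase (mean ± SD, n = 3), followed by Uhrf1 at 55.6 ± 2.02 and Dnmt1 at 33.0 ± 10.6. The ranges of these 3 genes did not overlap. Morc2a (19.5 ± 4.0), Atf7ip (19.3 ± 13.3), Mphosph8 (17.3 ± 3.08), Cbx5 (14.8 ± 2.36), Pphln1 (14.6 ± 1.57) and Setdb1 (11.7 ± 1.70) came next in CPM per kilobase, each with a range that overlapped that of its neighbour in this order. In S970D the order changed at the lower end: Trim28 stood at 125 ± 15.6, Uhrf1 at 43.2 ± 14.8 and Dnmt1 at 19.3 ± 1.41 CPM per kilobase, while Atf7ip, at 5.48 ± 1.38, was the lowest of the 9.

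**Figure D1:**
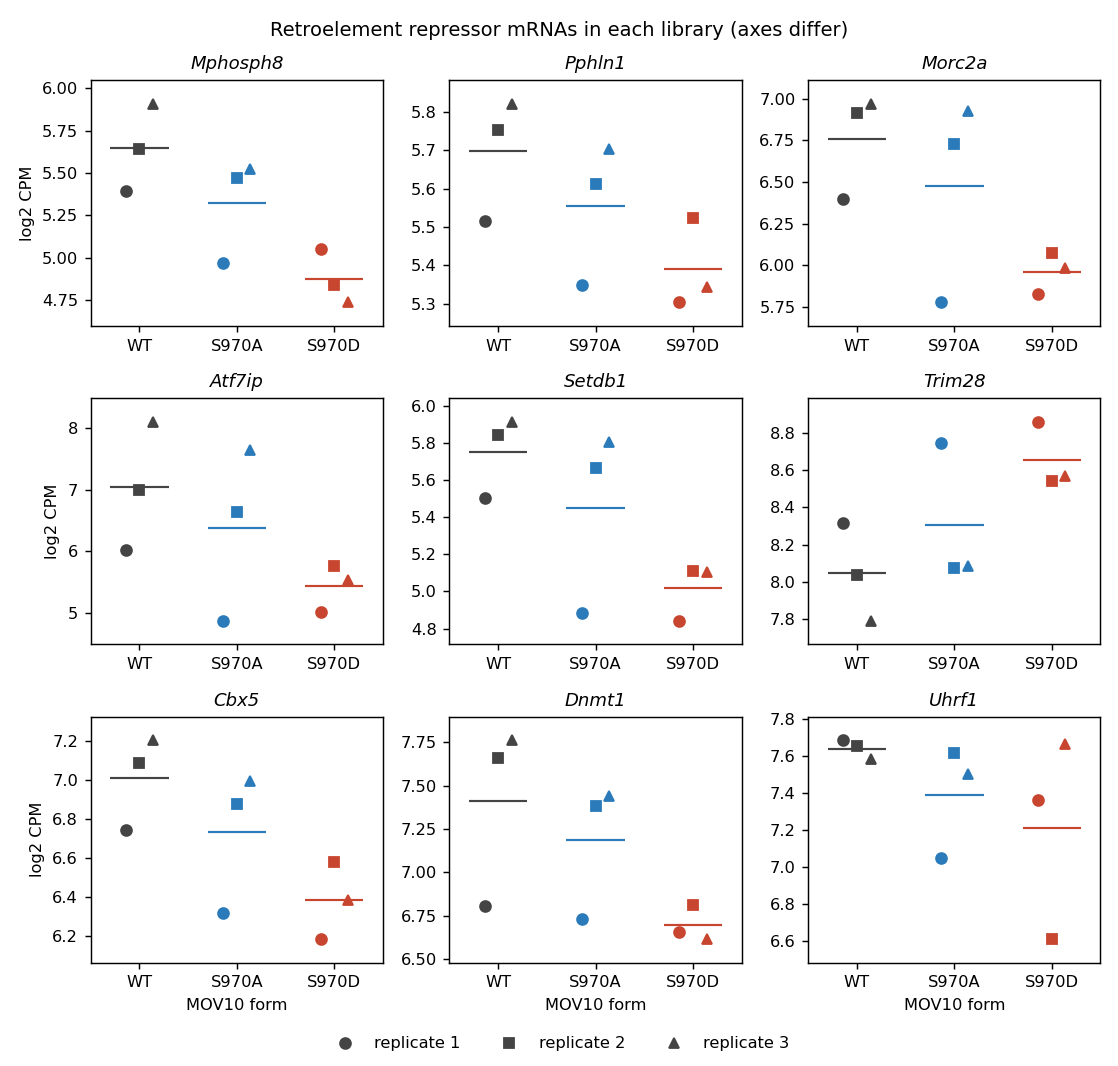
Each panel plots the log2 CPM of 1 gene (vertical axis, scaled per gene) in the 3 libraries of WT, S970A and S970D MOV10, with symbols for the replicate number and a bar for the group mean. The S970D libraries lie below all WT libraries for Mphosph8, Morc2a, Atf7ip, Setdb1 and Cbx5 and above them for Trim28, and S970A replicate 1 (blue circle) lies within the S970D range, or, for Morc2a and Atf7ip, just below it.

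Of the HUSH subunits, Mphosph8, which carries a chromodomain that binds methylated lysine 9, differed more between S970D and WT than Pphln1, the RNA-binding subunit. Mphosph8 (ENSMUSG00000079184.10, plus strand of chromosome 14, 56668248 to 56697430 of GRCm38, a coding transcript of 2939 bases in 14 exons) was at 5.40, 5.64 and 5.91 log2 CPM in WT replicates 1, 2 and 3, at 4.97, 5.47 and 5.52 in S970A and at 5.05, 4.84 and 4.74 in S970D. All 3 S970D libraries lay below all WT libraries, and S970A spanned the gap, its replicate 1 inside the S970D range and its other libraries inside the WT range. S970D minus WT came to -0.77 ± 0.20 (SE, log2), a ratio of 0.585 (limma adjusted p = 0.0756, and 0.0130 with the replicate number as a block). Pphln1 (ENSMUSG00000036167.16, plus strand of chromosome 15, 93398350 to 93491510, 3573 bases in 10 exons) was at 5.52, 5.75 and 5.82 in WT, at 5.35, 5.61 and 5.70 in S970A and at 5.30, 5.52 and 5.34 in S970D. Its groups overlapped, S970D replicate 2 lying above WT replicate 1, and the difference of -0.31 ± 0.15 passed in neither fit (limma adjusted p = 0.142, and 0.0629 with the block).

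The level of Mphosph8 relative to Pphln1 within a library, a pair picked after its values were seen and so given with no test, was -0.12, -0.11 and 0.09 on the log2 scale in WT, -0.38, -0.14 and -0.18 in S970A and -0.25, -0.69 and -0.61 in S970D. Every S970D library lay below every WT library in this ratio. Removal of the trend over length and GC content left it almost as it was, at a mean of -0.05 ± 0.13 (SD, n = 3) in WT and -0.52 ± 0.24 in S970D. Other pairs were looked at in the same way. In the deposited values the groups overlapped for Uhrf1 to Dnmt1, Setdb1 to Atf7ip and Morc2a to Mphosph8. They stayed apart for Trim28 to Setdb1, Mphosph8, Morc2a and Cbx5. The share over pairs of all genes was not counted.

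Of 8 measured genes of HUSH and its effectors, 7 had a lower mean in S970D than in WT, the median difference was -0.79, against -0.0019 over all genes, and with the block 6 fell and none rose. Of all genes 23.3% fell and 22.2% rose in that fit. With the trend over transcript length and GC content removed as well, 4 fell, where 12.2% of all genes fell. These shares are the background for the counts of every list below. Tasor, which encodes the subunit that holds the complex together, had a mean of 4.54 ± 0.23 log2 CPM (SD, n = 3) in WT and 2.93 ± 0.90 in S970D, a difference of -1.61 ± 0.62 (SE; limma adjusted p = 0.0873, and 0.0280 with the block). Its paralog Tasor2 differed by -1.39 ± 0.46 (limma adjusted p = 0.0756, and 0.00642 with the block). Both are long transcripts low in GC content (7590 bases at 38.9% and 8338 bases at 40.9%), and with the trend over these properties removed the difference was -0.68 for Tasor (limma adjusted p = 0.225 with the block) and -0.56 for Tasor2 (limma adjusted p = 0.0177 with the block).

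Morc2a, the mouse gene for the ATPase MORC2 that compacts chromatin at HUSH sites, was lower in S970D than in WT. The gene (ENSMUSG00000034543.15, plus strand of chromosome 11, 3649191 to 3690477, 5656 bases in 26 exons) was at 6.40, 6.92 and 6.97 log2 CPM in WT, at 5.78, 6.73 and 6.93 in S970A and at 5.83, 6.07 and 5.98 in S970D. The S970D libraries lay below all WT libraries, and S970A replicate 1 lay below all others. S970D and WT differed by -0.80 ± 0.29 (SE; limma adjusted p = 0.0792, and 0.0109 with the block). Its paralog Morc2b, near the lower limit of the table at -1.86 ± 0.81 log2 CPM in WT (SD, n = 3) and -1.42 ± 0.37 in S970D, differed by 0.44 ± 0.55 in the other direction (SE; limma adjusted p = 0.539), and how reads were divided between the paralogs is not given in the sources used here.

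Setdb1 and Atf7ip, the methyltransferase and the partner that keeps it in the nucleus, were both lower in S970D. Setdb1 (ENSMUSG00000015697.14, minus strand of chromosome 3, 95323525 to 95357202, 4658 bases in 22 exons) was at 5.50, 5.84 and 5.91 log2 CPM in WT, at 4.89, 5.67 and 5.81 in S970A and at 4.84, 5.11 and 5.10 in S970D. Again S970D lay below WT in every library, with S970A replicate 1 among the S970D values and the other S970A libraries inside the WT range. The difference was -0.73 ± 0.24 (SE), a ratio of 0.601 (limma adjusted p = 0.0756, and 0.00829 with the block). Atf7ip (ENSMUSG00000030213.12, plus strand of chromosome 6, 136506167 to 136610862, 8059 bases in 15 exons) was at 6.02, 7.0 and 8.10 log2 CPM in WT, at 4.87, 6.63 and 7.64 in S970A and at 5.01, 5.75 and 5.54 in S970D. It spread more between replicates than the other 8 genes, with an SD within groups at percentile 97.3 of all genes, and still all S970D libraries lay below all WT libraries. The difference of -1.60 ± 0.70 (SE) stood at percentile 1.57 of all genes in this comparison and did not pass across all libraries (limma adjusted p = 0.108), but passed with the block (limma adjusted p = 0.0108). Without WT replicate 3, its highest library, the difference was -1.07 (limma adjusted p = 0.324).

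The other methyltransferases of lysine 9 did not move one way. Of 11 measured genes for such methyltransferases and their cofactors, Setdb1 and Atf7ip included, 9 had a lower mean in S970D than in WT and the median difference was -0.47, against -0.0019 over all genes. With the block 6 fell and 1 rose, and with the trend over length and GC content removed as well 5 fell and 1 rose. Suv39h2, a methyltransferase of pericentric heterochromatin, differed by -0.97 ± 0.27 (SE; limma adjusted p = 0.0756, and 0.00691 with the block). Zfp644, a cofactor of the methyltransferases G9a and GLP, differed by -1.16 ± 0.34 (limma adjusted p = 0.0756, and 0.00669 with the block), and Cdyl, a chromodomain reader that binds these enzymes, by -1.25 ± 0.38 (limma adjusted p = 0.0756, and 0.00922 with the block). Once the trend was removed, Suv39h2 stood at -0.36 (limma adjusted p = 0.0374 with the block) and Zfp644 at -0.40 (limma adjusted p = 0.0360 with the block). The gene that rose, named after its value was seen, was Ehmt2, which encodes G9a itself, at 0.99 ± 0.31 (limma adjusted p = 0.0756, and 0.00669 with the block). Its partner Ehmt1, the gene for GLP, differed by -0.47 ± 0.24, Setdb2 by -0.46 ± 0.18 and Suv39h1 by -0.04 ± 0.11, and these 3 passed in neither fit.

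Trim28 was the exception among the 9 genes. It (ENSMUSG00000005566.14, plus strand of chromosome 7, 12999114 to 13031035, 3245 bases in 17 exons) was at 8.32, 8.04 and 7.79 log2 CPM in WT, at 8.75, 8.08 and 8.09 in S970A and at 8.86, 8.54 and 8.57 in S970D. All S970D libraries lay above all WT libraries, and S970A replicate 1 lay within the S970D range. S970D and WT differed by 0.61 ± 0.22 (SE), a ratio of 1.52 (limma adjusted p = 0.0792, and 0.00929 with the block). Its transcript had a GC content of 59.6%, at percentile 93.4 of all genes, while the other 8 lay between 42.6% and 53.8%.

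The level of Trim28 relative to Setdb1 in the same library, a pair picked after the values were seen and given with no test, was 2.81, 2.19 and 1.88 on the log2 scale in WT, 3.86, 2.41 and 2.28 in S970A and 4.01, 3.43 and 3.46 in S970D. The S970D libraries lay above the WT libraries in this ratio, and S970A replicate 1 lay with them. With the trend over length and GC content removed, the ratio ran from 2.42 to 2.92 in WT and from 3.11 to 3.47 in S970D, still apart. The ratio of Trim28 to Cbx5, at a mean of 1.04 ± 0.50 (SD, n = 3) in WT and 2.27 ± 0.36 in S970D, came to 1.56 ± 0.17 and 1.67 ± 0.20 once the trend was removed, and the groups then overlapped.

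Most partners of TRIM28 had lower means. Of 23 measured genes for TRIM28 partners and for NuRD, a deacetylase and remodelling complex, 15 had a lower mean in S970D, with a median difference of -0.30. With the block 9 fell and 3 rose, Trim28 among the latter, and with the trend removed as well 9 fell and 1 rose. Chd4, the remodelling ATPase of NuRD, differed by -1.24 ± 0.35 (SE; limma adjusted p = 0.0756, and 0.00705 with the block). The TRIM28 relatives Trim33 and Trim24 differed by -0.85 ± 0.27 (limma adjusted p = 0.0756, and 0.00922 with the block) and -0.64 ± 0.22 (limma adjusted p = 0.0758, and 0.0134 with the block). They stood at -0.16 and -0.34 and passed no longer once the trend was removed (limma adjusted p = 0.211 and 0.0941 with the block). Of 16 measured KRAB zinc finger genes known to act at retroelements or imprinted regions, 14 had a lower mean, with a median of -0.39, and with the block 5 fell and none rose, where 23.3% of all genes fell. In the fit with the trend removed as well, 3 fell and 3 rose, where 12.2% of all genes fell and 12.7% rose. The 3 that fell in both were Zfp445 (-1.25 ± 0.38, limma adjusted p = 0.0756, and 0.00752 with the block), which guards imprinted regions, Zfp568 (-0.66 ± 0.21, limma adjusted p = 0.0756, and 0.0102 with the block) and Zfp37 (-1.24 ± 0.40, limma adjusted p = 0.0756, and 0.00646 with the block). The 3 that rose once the trend was removed, named after their values were seen, were Zfp57 at 0.56, Zfp992 at 0.74 and Zfp229 at 0.96 (limma adjusted p = 0.0341, 0.0148 and 0.0287 with the block). None of these 3 passed with the block alone.

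Cbx5, the gene for HP1 alpha, was lower in S970D than in WT in the deposited values. The gene (ENSMUSG00000009575.14, minus strand of chromosome 15, 103191544 to 103239816) has a transcript of 8803 bases, of which 8100 are 3′ UTR. It was at 6.74, 7.09 and 7.20 log2 CPM in WT, at 6.32, 6.88 and 7.0 in S970A and at 6.19, 6.58 and 6.38 in S970D. The S970D libraries lay below all WT libraries, and S970A replicate 1 lay within the S970D range. The difference was -0.63 ± 0.21 (SE; limma adjusted p = 0.0758, and 0.00825 with the block).

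The other HP1 genes, which encode HP1 beta and HP1 gamma on much shorter transcripts, were lower too. Cbx1, of 1251 bases, differed by -0.74 ± 0.21 (SE; limma adjusted p = 0.0756, and 0.00642 with the block), and Cbx3, of 1889 bases, by -1.10 ± 0.54 (limma adjusted p = 0.143, 0.0299 with the block, and 0.0960 with the trend removed as well). Of 16 measured genes for HP1 and heterochromatin structure, Cbx5 included, 12 had a lower mean in S970D, and the median difference was -0.91. With the block 11 fell and 2 rose, and with the trend removed as well 6 fell and 3 rose. Atrx, a remodeller that loads histone H3.3 at repeats, differed by -1.66 ± 0.44 (limma adjusted p = 0.0756, and 0.00642 with the block). Its partner Daxx, the histone chaperone, differed by 0.80 ± 0.23 in the other direction (limma adjusted p = 0.0756, and 0.00642 with the block).

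Dnmt1 and Uhrf1, which act together in copying DNA methylation, were both low in S970A replicate 1 and in S970D replicates 1 and 2. WT replicate 1 and S970D replicate 3 were low for Dnmt1 alone. Dnmt1 (ENSMUSG00000004099.16, minus strand of chromosome 9, 20907209 to 20959888, 5367 bases in 39 exons) was at 6.80, 7.66 and 7.76 log2 CPM in WT, at 6.73, 7.38 and 7.44 in S970A and at 6.66, 6.81 and 6.61 in S970D. WT replicate 1 lay at the level of the S970D libraries, just under S970D replicate 2, and the other WT libraries lay well above them. The difference of -0.71 ± 0.28 (SE) did not pass across all libraries (limma adjusted p = 0.0881) and passed with the block (limma adjusted p = 0.0170). Uhrf1 (ENSMUSG00000001228.14, plus strand of chromosome 17, 56303321 to 56323486, 3586 bases in 17 exons) was at 7.68, 7.65 and 7.58 in WT, at 7.05, 7.62 and 7.50 in S970A and at 7.36, 6.61 and 7.66 in S970D. Its lowest values were in S970D replicate 2 and S970A replicate 1, and S970D replicate 3 lay inside the WT range. The difference of -0.43 ± 0.26 passed in neither fit (limma adjusted p = 0.224, and 0.196 with the block) and was -0.13 without S970D replicate 2 (limma adjusted p = 0.647).

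Of 21 measured genes of the DNA methylation machinery, Dnmt1 and Uhrf1 included, 17 had a lower mean in S970D, with a median of -0.64. With the block 14 fell and 1 rose, or 10 and 1 with the trend removed as well. Hells, the remodeller LSH that opens heterochromatin to DNA methyltransferases, differed by -2.41 ± 0.67 (SE), from 7.29 ± 0.69 log2 CPM (SD, n = 3) in WT to 4.88 ± 0.49 in S970D (limma adjusted p = 0.0756, and 0.00642 with the block). Uhrf2, a relative of Uhrf1, differed by -0.75 ± 0.23 (limma adjusted p = 0.0756, and 0.00688 with the block), and Zbtb38, which binds methylated DNA, by -1.70 ± 0.53 (limma adjusted p = 0.0756, and 0.0129 with the block). The de novo methyltransferase genes parted: Dnmt3b differed by -0.90 ± 0.32 (limma adjusted p = 0.0780, and 0.00858 with the block), and Dnmt3a by 0.37 ± 0.21 (limma adjusted p = 0.201, and 0.131 with the block). Once the trend was removed, Dnmt3a stood at 0.65 and rose (limma adjusted p = 0.0406 with the block). Of 38 S phase genes, a list that shares Dnmt1, Uhrf1, Hells and Cdca7 with the one above, 17 had a lower mean in S970D and 21 a higher one. Their median was 0.07, and with the block 8 rose and 13 fell, or 5 and 10 with the trend removed as well. Cycling of the cells was not measured.

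**Figure D2:**
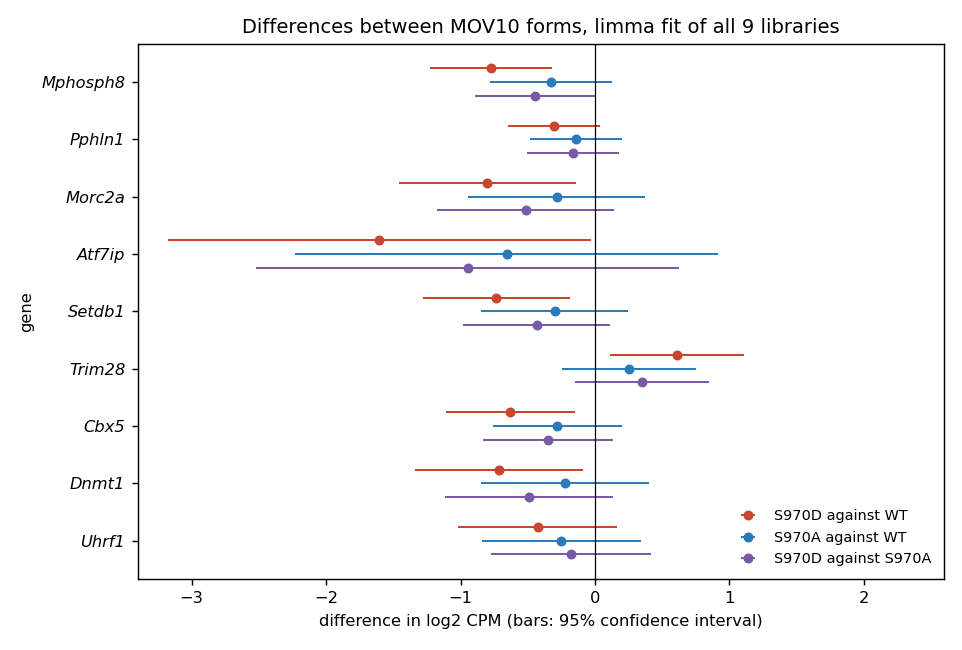
For each of the 9 genes the points give the difference in log2 CPM between 2 forms of MOV10 (horizontal axis) from the limma fit of all 9 libraries, with bars for the 95% confidence interval. For S970D against WT 8 points lie below 0 and Trim28 lies above it, and all intervals of S970A against WT include 0.

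The counts for S970D against WT were read against those over all genes. Of the 9 genes, 7 had an unadjusted p under 0.05 in the limma fit of all libraries, as did 44.3% of all genes. Groups did not overlap for 6 of the 9, 5 lower and Trim28 higher, where 57.2% of all genes had groups that did not overlap (29.3% lower and 27.9% higher). With the block, 6 fell where 23.3% of all genes fell, and 1 rose where 22.2% did. The same 7 genes passed in the fit of only the 6 libraries compared, in which 42.1% of all genes passed (21.8% lower and 20.3% higher), and without S970A replicate 1, in which 47.7% did (24.9% lower and 22.8% higher). Among the 3 genes whose groups overlapped, the S970D library was below the WT library of the same number in 3 of 3 pairs for Pphln1 and Dnmt1 and in 2 of 3 for Uhrf1. How many of all genes kept 1 side in 3 of 3 pairs was not counted. For a single gene, 3 libraries against 3, an exact permutation test (two-sided) cannot go below p = 0.1, which the 6 genes without overlap reached.

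**Figure D3:**
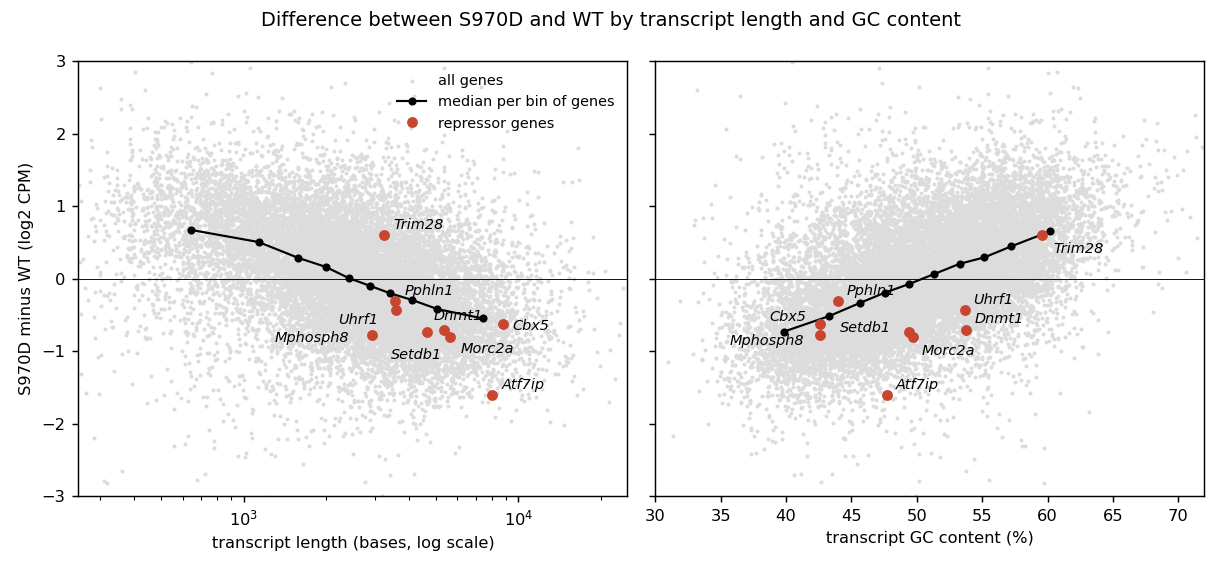
The difference in log2 CPM between S970D and WT (vertical axis, shown from -3 to 3) is plotted against transcript length (left, log scale) and GC content (right) for all genes (grey), with the median of each of 10 equal bins of genes (black) and the 9 repressor genes (red). The medians fall from 0.67 to -0.55 with length and rise from -0.73 to 0.65 with GC content, and among the GC bins Trim28 and Cbx5 lie near the median of theirs, Pphln1 lies above it, and the other 6 genes lie below it, Mphosph8 by the least.

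Transcript length and GC content moved with this comparison across the whole table. The median difference between S970D and WT was 0.67 in the shortest of 10 equal bins of transcript length and -0.55 in the longest, and it was -0.73 in the lowest of 10 bins of GC content and 0.65 in the highest. All 9 transcripts were longer than the median of 2660 bases, and Atf7ip and Cbx5 belonged to the longest bin. Trim28 belonged to the bin highest in GC content, and its difference of 0.61 was close to the median of 0.65 there. Mphosph8, Pphln1 and Cbx5, at 42.6% to 43.9% GC, belonged to a bin with a median of -0.52. Atf7ip, at -1.60, belonged to a bin with a median of -0.19. Morc2a and Setdb1, at -0.80 and -0.73, belonged to a bin with a median of -0.07. Dnmt1 and Uhrf1, at 53.8% and 53.7%, lay on the other side of the middle, in a bin with a median of 0.20, and their differences of -0.71 and -0.43 had the opposite sign. By length, Dnmt1, Morc2a and Setdb1 belonged to a bin with a median of -0.42. Uhrf1, Pphln1 and Trim28 belonged to one with a median of -0.20, and Mphosph8 to one with -0.10. Dnmt1 and Uhrf1 thus had the sign of their length bins, and Trim28 had the opposite sign.

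With the trend over both properties removed from each library, the differences between S970D and WT became smaller in size for 8 of the 9 genes and turned positive for 2. Cbx5 went from -0.63 to 0.12 and Pphln1 from -0.31 to 0.19. Trim28 went from 0.61 to 0.22, Mphosph8 from -0.77 to -0.28, Setdb1 from -0.73 to -0.40, Morc2a from -0.80 to -0.44 and Atf7ip from -1.60 to -1.10. Dnmt1 went from -0.71 to -0.60, and Uhrf1 stayed at -0.43.

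In the fit of all libraries with the trend removed no gene of the 9 passed (limma adjusted p from 0.115 to 0.514), nor did any of the 15959 annotated genes, of which 5130 had an unadjusted p under 0.05. With the trend removed and the block, Setdb1, Dnmt1, Morc2a and Atf7ip fell (limma adjusted p = 0.0249, 0.0305, 0.0338 and 0.0349), where 24.9% of all genes passed and 12.2% fell. With the trend removed and S970A replicate 1 left out, Setdb1, Morc2a and Dnmt1 fell (limma adjusted p = 0.0196, 0.0221 and 0.0483) and Atf7ip did not pass (limma adjusted p = 0.0801), where 13.1% of all genes fell. Mphosph8, Trim28, Cbx5 and Pphln1 passed in none of these fits.

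**Figure D4:**
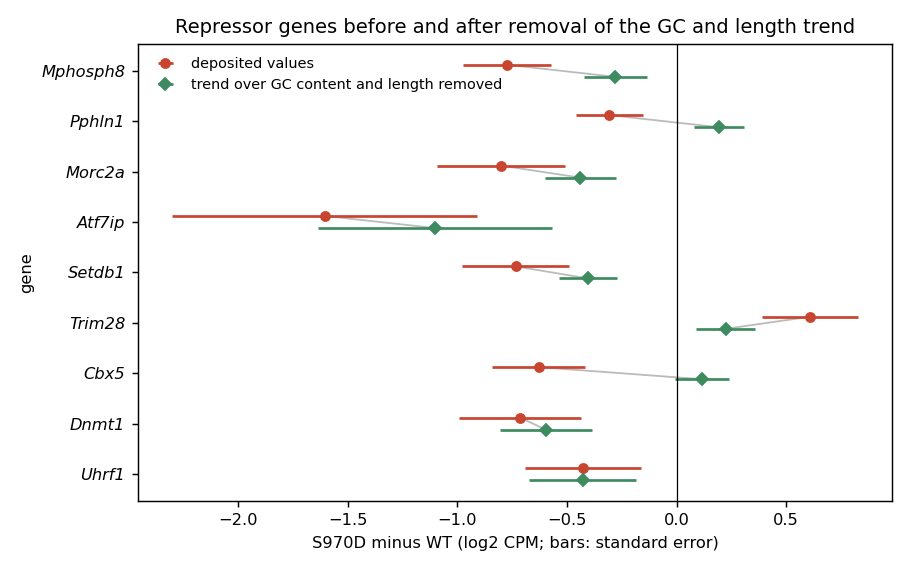
For each gene the difference in log2 CPM between S970D and WT (horizontal axis) is shown in the deposited values (red circles) and with the trend over length and GC content removed (green diamonds), with bars for the standard error. Cbx5 and Pphln1 cross 0, and Atf7ip, Dnmt1, Setdb1, Morc2a and Uhrf1 remain below -0.3.

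S970A against WT asks about the form that cannot carry the phosphate. None of the 9 genes passed (limma adjusted p from 0.776 to 0.784), none had an unadjusted p under 0.05, where 1.75% of all genes had, and none had groups that did not overlap, where 6.42% of all genes had. No gene of the table passed in this comparison (0.0%). The differences ran from -0.66 ± 0.70 (SE) for Atf7ip, with a 95% confidence interval of -2.23 to 0.92, to 0.25 ± 0.22 for Trim28, with an interval of -0.24 to 0.75. The WT libraries are the same as in S970D against WT. These values moved with S970A replicate 1: without it the differences lay between -0.15 for Mphosph8 and 0.10 for Atf7ip, and those of Morc2a, Atf7ip and Dnmt1 were above 0. That setting keeps WT replicate 1, the lowest WT library for these 3 genes. Between libraries of the same number, which were not taken as pairs in this comparison, S970A was below WT in 3 of 3 cases for 8 of the 9 genes and above WT in 3 of 3 for Trim28. The share of all genes on 1 side in 3 of 3 cases was not counted, so this count is not read as an effect of S970A. By group mean, 8 of the 9 were below WT, as were 50.7% of all genes. Apart from Uhrf1, the genes varied closely together over the 9 libraries, Trim28 in the opposite direction, so they are not separate observations. Within replicate numbers 1, 2 and 3, S970A minus WT was -0.62, -0.19 and -0.05 for Morc2a, -1.14, -0.37 and -0.46 for Atf7ip and -0.07, -0.28 and -0.32 for Dnmt1. Nothing in the labels sets S970A replicate 1 apart.

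S970D against S970A sets the altered forms against each other. Differences ran from -0.95 ± 0.70 (SE) for Atf7ip to 0.35 ± 0.22 for Trim28, and 8 of 9 were below 0, as were 50.3% of all genes. None of the 9 had groups that did not overlap, where 8.07% of all genes had. None passed (limma adjusted p from 0.411 to 0.680), none had an unadjusted p under 0.05, where 6.95% of all genes had, and no gene of the table passed (0.0%). Without S970A replicate 1, 5 of the 9 were lower and Trim28 higher past the threshold, in a fit in which 39.5% of all genes passed: Morc2a by -0.87, Setdb1 by -0.72, Mphosph8 by -0.62, Trim28 by 0.57, Cbx5 by -0.56 and Atf7ip by -1.70 (limma adjusted p from 0.0149 to 0.0376). With the trend over length and GC content removed as well, Morc2a and Setdb1 passed (limma adjusted p = 0.0343 and 0.0441), where 8.48% of all genes were lower. S970A replicate 1 was singled out from these same values, as the S970A library that lay with S970D. Leaving it out widened the differences of the genes named, so these calls cannot serve as a test of the forms.

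The moderated F test for any difference among the 3 forms passed none of the 9 genes and no gene of the table (0.0%, with 3953 genes at an unadjusted p under 0.05) in the limma fit of all libraries. It passed 7 of the 9 with the block, a fit that also takes the numbers of S970A as pairs, where 29.5% of all genes passed. Without S970A replicate 1, a library singled out from these same data, it passed 6, where 41.0% of all genes passed. With the trend over length and GC content removed, it passed 0 of the 9 with the block, where 7.84% of all genes passed. With the trend removed and S970A replicate 1 left out, it passed 2, where 18.3% did.

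Genes that the 9 repressors are known to act on, and related regulators, were described by the same measures for S970D against WT. Clustered protocadherins, cell adhesion genes known as targets of SETDB1 and of HUSH, had a lower mean in 41 of 43 cases, with a median difference of -0.94, and with the block 21 fell and 2 rose, where 23.3% and 22.2% of all genes did. In the fit with the trend removed as well, 9 fell and 1 rose, where 12.2% and 12.7% of all genes did. Pcdhb5 differed by -1.21 ± 0.25 (SE; limma adjusted p = 0.0756, and 0.00847 with the block), Pcdhb15 by -1.18 ± 0.29 (limma adjusted p = 0.0756, and 0.0187 with the block) and Pcdhga4 by -1.65 ± 0.41 (limma adjusted p = 0.0756, and 0.00697 with the block), all at low levels of -1.80 to 1.12 log2 CPM in the group means. Of 30 germline genes known to be silenced by promoter DNA methylation, 10 were measured, 5 with a lower and 5 with a higher mean and a median of 0.05. Asz1, which acts in the piRNA pathway, differed by -0.57 ± 0.16 and fell with the block (limma adjusted p = 0.00923), Zbtb32, a zinc finger repressor, differed by 1.06 ± 0.55 and rose with the block (limma adjusted p = 0.0146), and Rnf17, a Tudor protein of the germline, differed by 0.95 ± 0.53 and passed in neither fit (limma adjusted p = 0.186, and 0.0791 with the block). These calls changed once the trend was removed. Asz1 stood at -0.23 and Zbtb32 at 0.57, and neither passed (limma adjusted p = 0.136 and 0.111 with the block). Rnf17 stood at 1.74 and rose (limma adjusted p = 0.0330 with the block).

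Enzymes that oppose the 9 repressors were lower on average as well. Of 13 measured demethylases and other antagonists of lysine 9 and DNA methylation, 11 had a lower mean in S970D, with a median of -0.69, and with the block 9 fell and 1 rose, where 23.3% and 22.2% of all genes did. Removal of the trend left 4 that fell and none that rose, where 12.2% and 12.7% of all genes did. The demethylase genes Jmjd1c and Kdm4c differed by -1.17 ± 0.37 (SE; limma adjusted p = 0.0756, and 0.00642 with the block) and -0.90 ± 0.32 (limma adjusted p = 0.0786, and 0.0141 with the block), while Kdm4b differed by 0.50 ± 0.16 (limma adjusted p = 0.0756, and 0.0282 with the block). Kdm4c stood at -0.33 and Kdm4b at 0.29 once the trend was removed. Neither then passed (limma adjusted p = 0.166 and 0.110 with the block). Of 31 measured Polycomb repressors, which work through another histone mark and serve for comparison, 24 had a lower mean, with a median of -0.48, and with the block 15 fell and 3 rose, or 7 and 3 with the trend removed as well. Ezh2, the Polycomb methyltransferase, differed by -0.76 ± 0.17 (limma adjusted p = 0.0756, and 0.00796 with the block), and its cofactors Aebp2 and Mtf2 by -1.18 ± 0.32 (limma adjusted p = 0.0756, and 0.00709 with the block) and -0.85 ± 0.23 (limma adjusted p = 0.0756, and 0.00728 with the block). Ezh2 stood at -0.37 and Mtf2 at -0.02 once the trend was removed. Neither then passed (limma adjusted p = 0.110 and 0.873 with the block). No gene of these 11 lists passed in the limma fit of all 9 libraries. With the trend over length and GC content removed, the medians were -0.42 for the HUSH list, -0.17 for the methyltransferases, -0.47 for heterochromatin structure, -0.34 for TRIM28 partners and NuRD, -0.43 for the DNA methylation machinery, -0.28 for the antagonists, 0.11 for the KRAB zinc finger genes, 0.16 for the germline genes, -0.42 for the protocadherins, -0.27 for Polycomb and 0.07 for S phase, against -0.0087 over all genes.

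**Figure D5:**
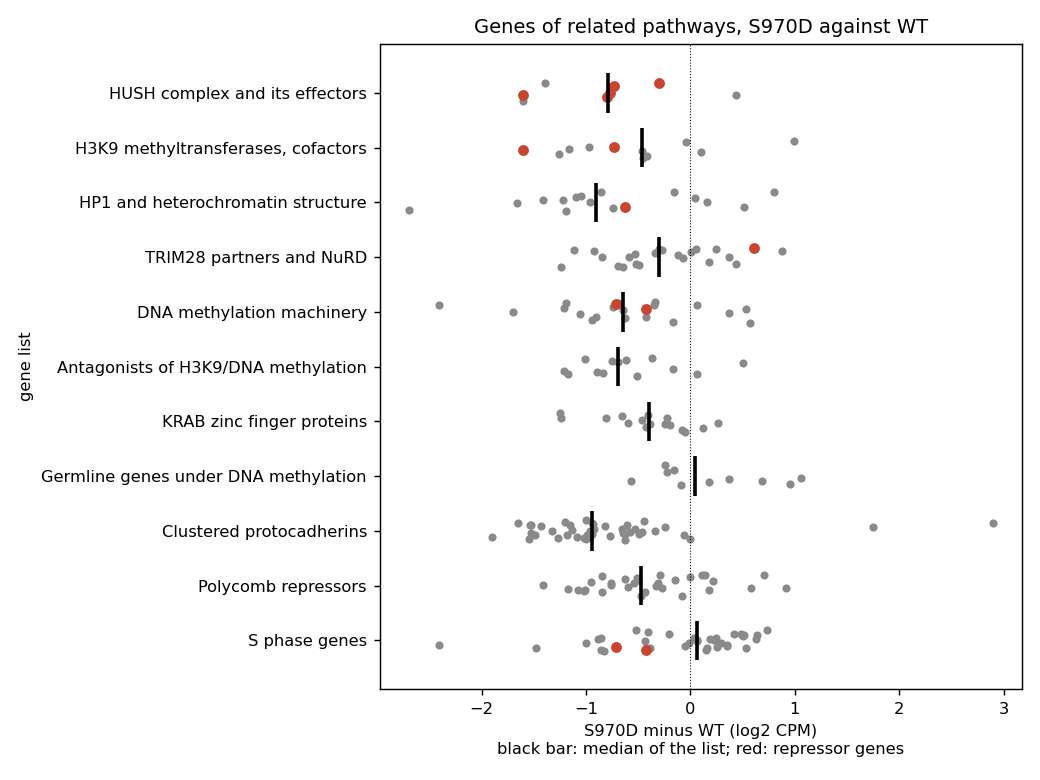
Each point is a gene of a list (vertical axis) at its difference in log2 CPM between S970D and WT (horizontal axis), with the 9 repressor genes in red, other genes in grey and a black bar at the median. The medians of the germline and S phase lists lie close to 0, at 0.05 and 0.07, and those of the other lists lie between -0.94 and -0.30.

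The pattern over the 9 libraries was shared with many genes. By Pearson r with 10843 genes of a mean of at least 1 log2 CPM, as a description over 9 libraries that fall along a single main axis, the most alike were Clk1 for Mphosph8 (0.989), Tbp for Pphln1 (0.994), Abr for Morc2a (0.999), Etv1 for Atf7ip (0.989), Srpk2 for Setdb1 (0.999), Eif4ebp1 for Trim28 (0.997), Elf2 for Cbx5 (0.998), Hdlbp for Dnmt1 (0.994) and Decr2 for Uhrf1 (0.991). Genes with r of at least 0.9 made up 27.2% of those compared for Setdb1, 26.1% for Morc2a and 23.9% for Trim28, but 1.77% for Uhrf1. In the authors' deposited table, 7 of the 9 genes carried the cluster colour turquoise, as did 18.5% of all genes, while Trim28 was in the blue cluster (13.7% of all genes) and Uhrf1 in the yellow one (3.03%). The rule behind these clusters is not given in the sources used here.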

How the data were processed

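Stranded libraries of poly(A)-selected RNA were run on a single sequencing lane, per the labels' protocols. Named without a role in the submitters' processing notes are bcl2fastq 2.20, Salmon 1.1.0, R 3.6.3 and GRCm38. The authors deposited log2 CPM values for 15977 genes in 9 separate libraries. The sources used here do not give their scaling, prior count or minimum for low genes. All libraries had the same lowest value, -4.09, and turned back to CPM they summed to 955214 to 1069215. Because the deposited log2 values hold a prior count, they understate fold changes of genes near that lowest value. The depth is unknown, so no interval for counting error is given. The authors' deposited cluster colours were copied, and a row order of another kind was not used.

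Group was the only term of the fits, made with limma 3.58.1 in R 4.3.3 on the log2 CPM of all 9 libraries (6 residual degrees of freedom) with an intensity trend. P-values were two-sided and adjusted over the whole table by the Benjamini-Hochberg method, with a threshold of 0.05. The fits were tested on simulated data.

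The groups share replicate numbers, whose meaning the labels do not state. For S970D and WT, same-numbered libraries deviated together from their group means (correlations of 0.31, 0.11 and 0.16). Each exceeded 0.1, so the replicate number was added as a block for that comparison, from the data and not from a label. The block was fitted on all 9 libraries, so it covered the S970A libraries too. No paired fit of S970D and WT alone was made. The correlations were 0.59, 0.07 and 0.49 for S970A and WT, and 0.38, 0.0043 and 0.24 for S970D and S970A.

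Lengths, GC content and coordinates were those of GENCODE vM21, which held 15959 of the genes (99.9%), using the transcript with the longest coding sequence. Splines with 5 degrees of freedom took the trend over GC content and log length out of each library. Also tried were log2(CPM + 1), a minimum mean log2 CPM of 1, quantile normalization, centring on the median, no intensity trend, the replicate block, fits of the 6 libraries compared, and leaving out each library.

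The 9 genes, the 11 pathway lists and the marker lists were chosen with earlier results of these data known. Named besides the 9 genes and Mov10 were, per list, up to 3 measured genes with the largest moderated statistic in S970D against WT, all HUSH genes, Cbx1, Cbx3, Dnmt3a and Dnmt3b, and per gene the most alike gene. The gene of each list with the largest statistic in S970A against WT was looked up by the same rule, and none passed. Symbols in the table were matched first, and GENCODE symbols second. Of the promoter motifs planned, that of NRF1 was not used here.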

Additional observations from a re-analysis of the deposited data

How the results depend on the processing

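The counts of genes that passed changed with the fit. For S970D against WT, 1 gene passed in the fit of all libraries, 0 with log2(CPM + 1), 0 without the intensity trend, 7276 with the replicate block, 6727 in the 6 libraries compared, 0 with the GC and length trend removed, 3968 with the trend removed and the block, 4158 with the trend removed and S970A replicate 1 left out, and 0 to 7615 with each library left out, the highest count without S970A replicate 1. For S970A against WT the count was 0, and 0 to 1 with each library left out. For S970D against S970A it was 0, 2655 with the trend removed and S970A replicate 1 left out, and 0 to 6307 with each library left out. The F test gave 0, 4716 with the block, 1251 with the trend removed and the block, 2922 with the trend removed and S970A replicate 1 left out, and 0 to 6558 with each library left out. Quantile normalization and median centring turned no difference of the 9 genes. With the trend removed, with and without the block, Pphln1 became 0.19 in S970D against WT, 0.066 in S970A against WT and 0.13 in S970D against S970A (0.21 without S970A replicate 1), and Cbx5 became 0.12, 0.014 and 0.10 (0.21 without S970A replicate 1); the first value of each was the same without S970A replicate 1. In S970A against WT without S970A replicate 1, Morc2a became 0.065, Atf7ip 0.096 and Dnmt1 0.0029 (with each library left out, -0.51 to 0.065, -1.29 to 0.096 and -0.53 to 0.0029), and with the trend removed as well Morc2a became 0.036, Atf7ip 0.058 and Trim28 -0.016. Uhrf1 in S970D against S970A became 0.12 without S970D replicate 2 and ran from -0.40 to 0.12 with each library left out. The cause of these shifts was not tested beyond the alternatives named. The replicate block changed no call of the 9 genes beyond the 7 given for S970D against WT and those of the F test. With no read counts, the precision at a given depth could not be stated.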
